A study of Homo sapiens with 6 samples.

Results

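The 7 genes SOCS1 to SOCS7 encode suppressors of cytokine signalling, and the m6A peaks that fell in them in HEK293T cells are described here. HEK293T derives from human embryonic kidney and expresses the large T antigen of SV40. The cells were wild-type and untreated in all libraries as far as the labels say, so no condition was compared. Methylated RNA immunoprecipitation sequencing (MeRIP-seq) was run 3 times, and each repeat is a pair of libraries, the RNA pulled down with an antibody against N6-methyladenosine (IP) and its input, 6 samples in all. Whether each repeat began from its own culture is not stated, so the spread between them may be technical. A peak was taken as a member when its centre lay in the hg19 interval of a SOCS gene on that gene's strand. This gave 44 peaks of 61147: 16 of 21286 in MeRIP 1, 14 of 19851 in MeRIP 2 and 14 of 20010 in MeRIP 3. Merged over the lists wherever peaks shared a base, they formed 15 regions of 25737. Of the 7 genes, 6 had a peak and 1, SOCS1, had none. The share of all genes with a listed peak is not known here, so this count is not read as particular to the family.

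SOCS proteins are feedback inhibitors of the JAK-STAT pathway and of receptor tyrosine kinases. A cytokine receptor activates JAK kinases, these phosphorylate STAT factors, and STATs switch on genes that include SOCS1, SOCS2, SOCS3 and the related CISH, whose products then damp the same receptor. Each protein has an SH2 domain, which binds phosphotyrosine, and a SOCS box, which recruits elongins and cullin 5 to have the bound partner ubiquitinated. m6A is added to mRNA mostly by METTL3 with METTL14 and is read by proteins such as YTHDF2, which speeds decay of the message. In mouse T cells the mRNAs of Socs1, Socs3 and Cish are known m6A targets, and in liver cancer cells SOCS2 mRNA is one.

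Most SOCS regions were found in every repeat, and SOCS3, SOCS4, SOCS5 and SOCS6 had a common layout: a narrow region near the 5' end, in SOCS6 seen in 1 list, and a wide, higher-scoring one further along. Of the 15 regions, 12 (80.0%) had a peak in all 3 lists, 2 had one in 2 lists and 1 had one in MeRIP 1 alone. Over the whole series 59.3% of regions had a peak in all 3 lists. SOCS2, SOCS3, SOCS4 and SOCS5 had 2 peaks in every list. SOCS7 had 6, 5 and 5 peaks in MeRIP 1, 2 and 3, and SOCS6 had 2, 1 and 1. The mean was 14.7 ± 1.15 SOCS peaks per list (SD, n = 3 lists), which covered 14304 ± 662 bp. No listed peak on the opposite strand had its centre in any of the 7 intervals. The lists are named as m6A peaks of mRNA, so peaks on other RNAs may not be listed.

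**Figure D1:**
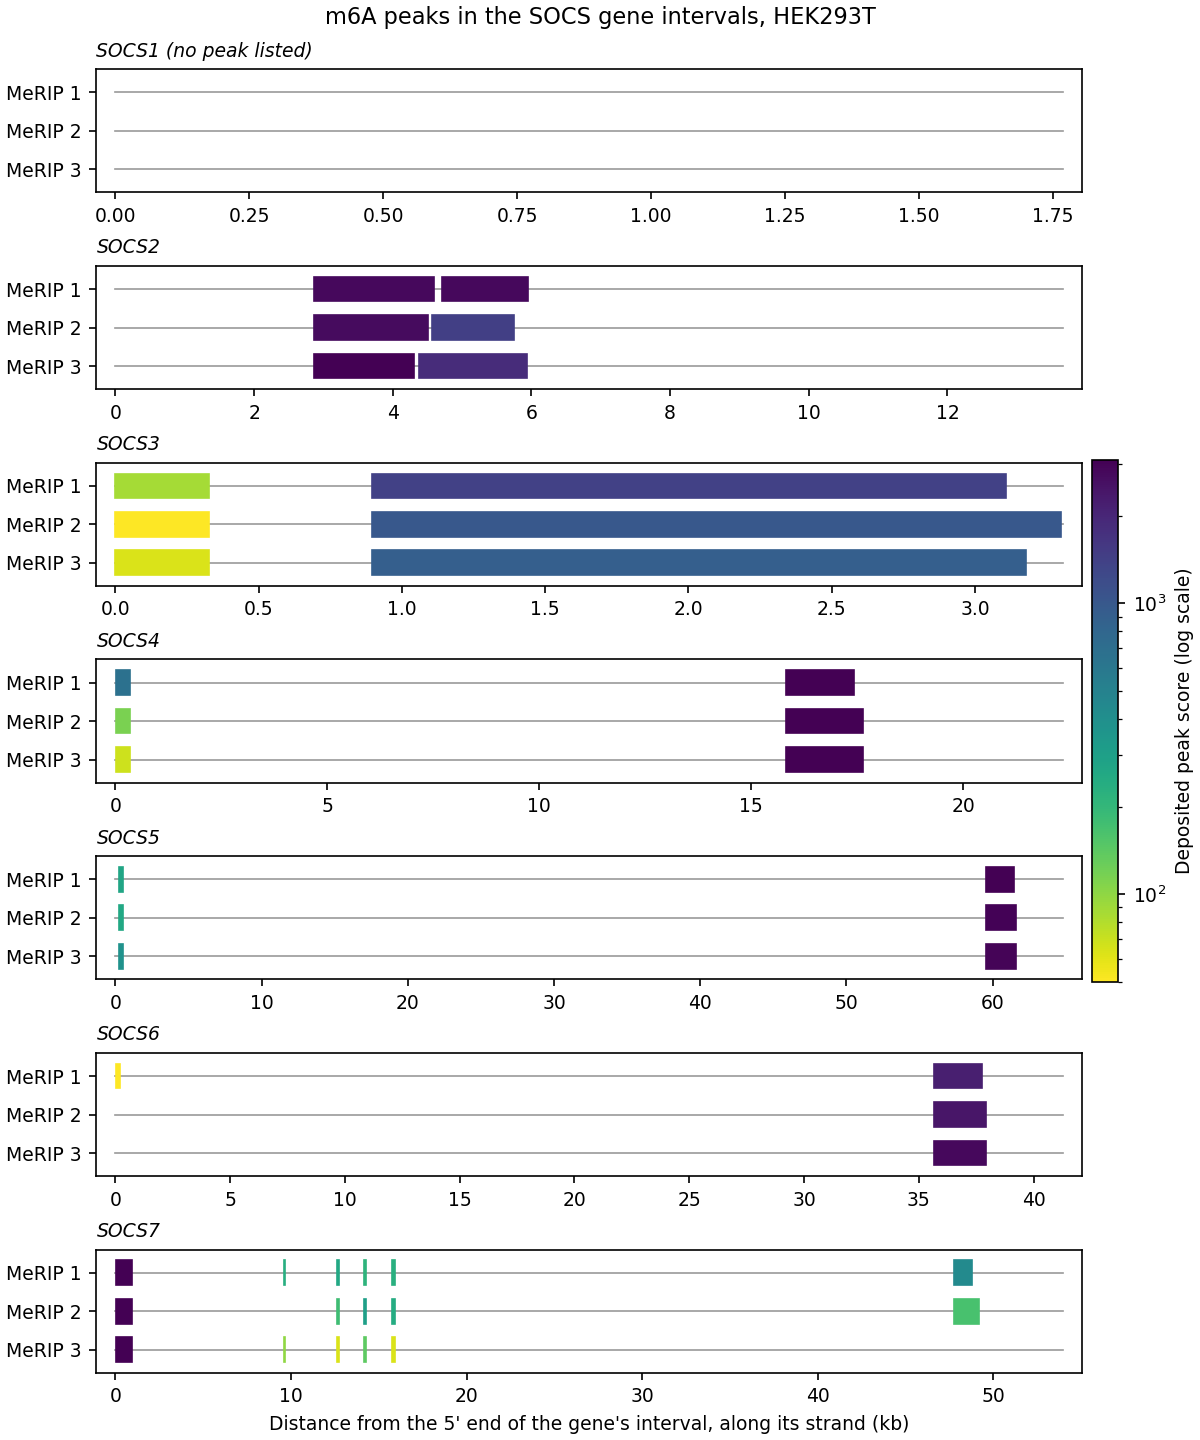
Peaks in the 7 SOCS gene intervals, with distance in kb from the 5' end of the interval on the x axis (a scale for each gene) and a row for each of the 3 lists. Each box is a peak drawn to scale, with a thin outline of the same colour, and coloured by its deposited score on a log scale, from 50 (yellow) to 3100 (dark purple). SOCS1 has no box, SOCS7 has up to 6, and the strongest peaks of SOCS3, SOCS4, SOCS5 and SOCS6 lie downstream of a weaker one, in SOCS6 in MeRIP 1 alone.

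The score given to each peak is the authors' own. Its values look like the log10 of a p-value, negated and multiplied by 10, as MACS, a peak caller, writes it, although no header states the scale, and 3100 acts as a ceiling for strong peaks. No list holds a score under 50. Such a score rises with coverage and peak width as well as with methylation, so its ratios are not folds of methylation and its order among genes is not an order of methylation per transcript. Peak lists give no read depth or transcript level, so a missing peak cannot be read as an unmethylated RNA.

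SOCS1, which blocks the kinase activity of JAKs directly and restrains interferon signalling, had no peak in any list. Its interval (chr16:11348270-11350039, minus strand) spans 1.77 kb. The nearest listed peaks on either side, both on the plus strand, ended 72.2, 72.2 and 72.3 kb away in MeRIP 1, 2 and 3 and began 89.3 kb away on the other side in each list. SOCS1 thus had no listed peak in 3 of 3 lists, and neither strand had one between those flanking peaks. Running numbers in the peak names skip 6 between them in each list, so the stretch is not shown to be free of peaks.

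SOCS3, which also inhibits JAKs and acts on receptors that contain gp130, had a region at its 5' end and one over most of the rest of its interval (chr17:76352850-76356158, minus strand). The 5' region (chr17:76355831-76356160) was 330 bp wide in every list and scored 87.1 in MeRIP 1, 50.6 in MeRIP 2 and 62.8 in MeRIP 3. All 3 scores were low, and that of MeRIP 2 lay 0.272% of the way up its list, so it was almost at the lowest score listed. The downstream region (chr17:76352858-76355264) scored 1393, 1008 and 908 in MeRIP 1, 2 and 3, from the 63.4th to the 71.1st percentile of the lists. On the log2 scale the levels were 6.03 ± 0.40 for the 5' region and 10.08 ± 0.32 for the downstream one (SD, n = 3 lists), with no overlap between them. Peaks covered 76.9%, 82.7% and 79.0% of the SOCS3 interval, the highest share of the 7 genes. This share depends on interval length, which is 3.31 kb in SOCS3 and 13.7 to 64.8 kb in the other genes with peaks. In bp, SOCS3 peaks covered a mean of 2632 per list, less than the 2926 of SOCS2. SOCS4 to SOCS7 had means of 2086 to 2291 bp. The whole SOCS3 protein is encoded in its last exon. No annotation of this build was used here, so the peaks were not placed on coding sequence or untranslated parts, for this gene or the others.

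SOCS2, best known for restraining growth hormone signalling, had a block of 2 adjoining peaks inside its interval (chr12:93963590-93977263, plus strand) and none at the interval's 5' end. The block began 2.87 kb into the interval at the same base in every list and merged into a region of 3081 bp (chr12:93966461-93969541). The first peak scored 2849 in MeRIP 1, 2725 in MeRIP 2 and 3100, the ceiling, in MeRIP 3. The second scored 2851, 1440 and 1872. The first peak was within a narrow range near the ceiling in every list, while the second was as high as the first in MeRIP 1 and lower in the other 2. The break between the peaks lay at a different place each time: the first peak ended at 93968187, 93968096 and 93967901, and the gap to the second was 111, 58 and 73 bp. The summed width of the 2 peaks was 2970, 2816 and 2993 bp, so the SOCS2 block had a similar extent in each list and was broken at different points.

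SOCS4 and SOCS5, a pair of closely related members linked to the degradation of the EGF receptor, had the same layout. In SOCS4 (chr14:55493840-55516206, plus strand) the downstream region (chr14:55509670-55511487) was at the score ceiling of 3100 in all 3 lists, with peaks of 1597, 1818 and 1806 bp. The 5' region of SOCS4 (chr14:55493844-55494189) started 4 bp into the interval and was 346 bp wide in every list. Its score was 664 in MeRIP 1, 115 in MeRIP 2 and 68.1 in MeRIP 3. That of MeRIP 1 stood far above the other 2, with a highest score 9.75 times the lowest. In this SOCS4 region the peak was thus listed each time with the same edges but at levels from the 7.55th to the 58.5th percentile of a list. The 15.5 kb between the 2 SOCS4 regions held no listed peak.

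In SOCS5 (chr2:46926080-46990927, plus strand) the downstream region (chr2:46985658-46987654) scored 3100, 3043 and 2981, within 1.04 times of one another. The score of MeRIP 1 is the ceiling, so the spread of this region may be larger than that ratio shows. Its 5' region (chr2:46926349-46926588) was 240 bp wide and scored 273, 259 and 381 in MeRIP 1, 2 and 3. Unlike the 5' region of SOCS4, that of SOCS5 stayed within a narrow range, with a log2 level of 8.23 ± 0.30 (SD, n = 3 lists) against 7.43 ± 1.72 for SOCS4. The SOCS5 regions lay 59.1 kb apart.

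SOCS6, which binds the receptor tyrosine kinase KIT and insulin receptor signalling proteins, had a wide downstream region in every list and a weak 5' peak in MeRIP 1 alone (interval chr18:67956130-67997434, plus strand). The downstream region (chr18:67991779-67994074) scored 2186 in MeRIP 1, 2436 in MeRIP 2 and 2838 in MeRIP 3. It was high in all 3 lists, with peaks of 2090, 2296 and 2296 bp. The 5' peak (chr18:67956137-67956326) was 190 bp wide and scored 50.5 in MeRIP 1, just above the lowest score of 50 that any list holds. Its absence from MeRIP 2 and MeRIP 3 therefore sits at the limit of what the lists can show. The nearest listed peaks beyond the SOCS6 interval lay 6969, 6957 and 6957 kb before it in MeRIP 1, 2 and 3 and 3962 kb after it in each list, with no other listed peak between. Peak names carry running numbers, and 75, 43 and 45 numbers between those flanking peaks are not in the lists used here, so the stretch is not shown to be free of peaks.

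SOCS7, a member that binds the adaptor NCK and cytoskeletal proteins, differed in layout: its strongest region was at the 5' end and it had several narrow peaks inside (interval chr17:36508000-36562000, plus strand). The 5' region (chr17:36508007-36508915) started 7 bp into the interval, was 909 bp wide and was at the ceiling of 3100 in all 3 lists. It was the only 5' region among the 7 genes at the ceiling in any list. Then came 4 narrow regions of 65, 105, 131 and 169 bp between 9.59 and 15.8 kb from the 5' end.

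The narrow SOCS7 regions had lower scores in MeRIP 3 than in the other lists that held them. The region of 65 bp (chr17:36517594-36517658) scored 232.5 in MeRIP 1 and 99.99 in MeRIP 3 and was missing from MeRIP 2. That of 105 bp (chr17:36520635-36520739) scored 261, 181 and 63.2 in MeRIP 1, 2 and 3. That of 131 bp (chr17:36522170-36522300) scored 214, 308 and 140. MeRIP 3 gave the lowest of the 3 scores in the regions of 105 and 131 bp, and the lower of the 2 listed scores in that of 65 bp. In the SOCS7 region of 169 bp (chr17:36523765-36523933) the scores were 231, 244 and 63.5, again lowest in MeRIP 3. Relative to MeRIP 1, the log2 difference in score in MeRIP 3 was -1.22, -2.05, -0.61 and -1.86 for the 4 regions from the 5' end. Its median was -0.04 over the 11131 regions of the series found in all 3 lists and below the ceiling in each. The region of 65 bp is not among these. Only 52.4% of the 11131 had scores within 2-fold over the 3 lists, so wider spreads were common. The 4 narrow SOCS7 regions lie in 1 gene and are not independent.

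The last SOCS7 region (chr17:36555766-36557193) lay 31.8 kb downstream of the narrow ones. It scored 436 in MeRIP 1 and 167 in MeRIP 2 and was not listed in MeRIP 3. Its peak was 999 bp wide in MeRIP 1 and 1428 bp in MeRIP 2, so the wider peak had the lower score. Of the 5 SOCS7 regions downstream of the 5' one, MeRIP 3 thus had the lowest of 3 scores in 3, the lower of 2 in the region missing from MeRIP 2, and no peak in the last, while at the 5' region it tied with the other lists at the ceiling.

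**Figure D2:**
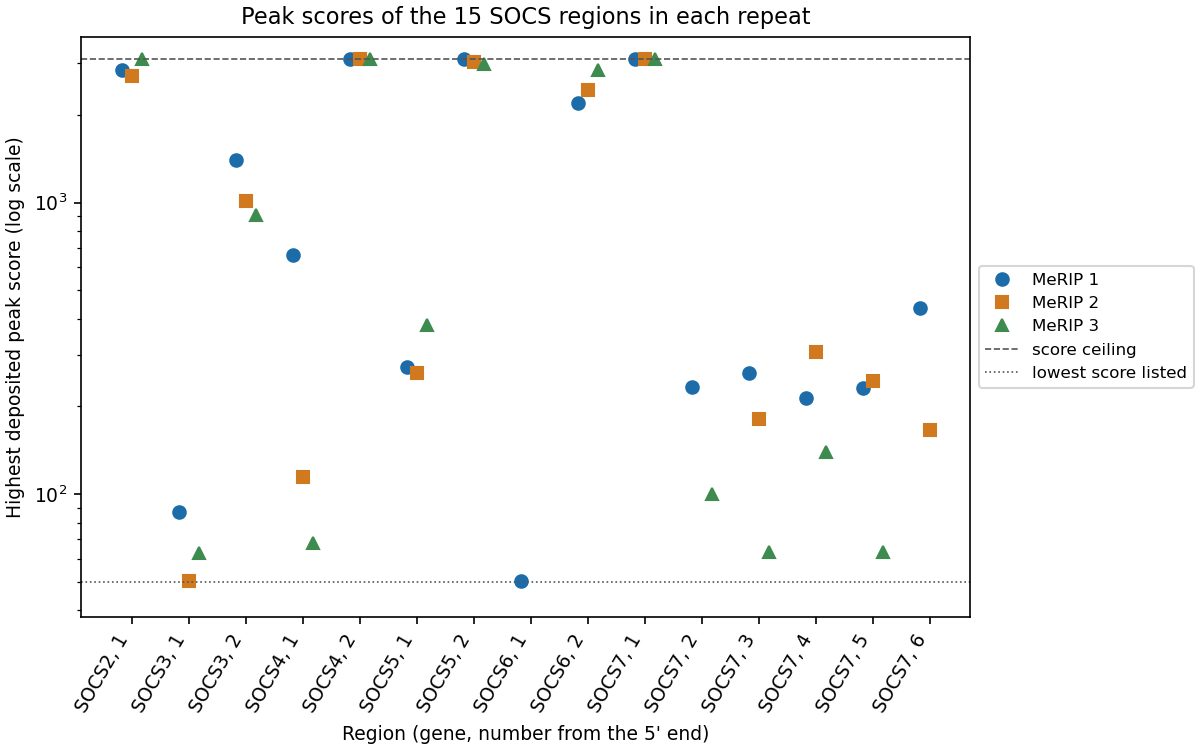
Highest deposited peak score (y axis, log scale) of each of the 15 SOCS regions, numbered within a gene from the 5' end (x axis), in MeRIP 1 (circles), MeRIP 2 (squares) and MeRIP 3 (triangles). The dashed line is the ceiling of 3100 and the dotted line the lowest listed score of 50. Region 2 of SOCS4 and region 1 of SOCS7 are at the ceiling in all 3 lists, and regions 3 to 5 of SOCS7 have their lowest score in MeRIP 3; region 2 of SOCS7 has no peak in MeRIP 2.

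Ordered by the highest score of each gene, SOCS4 and SOCS7 tied at the ceiling in every list. SOCS5 followed with 3041 ± 59.7 and SOCS2 with 2892 ± 191 (SD, n = 3 lists). Then came SOCS6 with 2486 ± 329 and SOCS3 with 1103 ± 256. The ranges over lists of SOCS5 and SOCS2 overlapped, as did those of SOCS2 and SOCS6. SOCS5 reached the ceiling in MeRIP 1 and SOCS2 in MeRIP 3. Within each list SOCS2 was above SOCS6, with 2851, 2725 and 3100 against 2186, 2436 and 2838 in MeRIP 1, 2 and 3. SOCS5 was above SOCS2 in MeRIP 1 and MeRIP 2 and below it in MeRIP 3. The lowest score of SOCS6, 2186, was above the highest of SOCS3, 1393, so that step was larger than the spread between lists. The ceiling hides any difference among the genes at the top.

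In the number of peaks at the top of the scale the family was close to the series as a whole. Of the 44 SOCS peaks, 8 (18.2%) were at the ceiling, against 17.9% of all peaks. Every list had the ceiling score in 2 (16.7%) of the 12 SOCS regions found each time, against 18.9% of such regions in the series. The median score of SOCS peaks was 550 in MeRIP 1, 658 in MeRIP 2 and 645 in MeRIP 3, beside 420, 422 and 443 over all peaks of those lists. SOCS peaks were wide: 19 of 44 (43.2%) exceeded 1000 bp, against 25.4% of all peaks. These shares rest on few peaks of 6 genes that were each listed up to 3 times, and were not tested.

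The edges of SOCS peaks fell in 2 classes. In 11 SOCS regions each list had exactly 1 peak. Of these, 7 (63.6%) began and ended at the same bases every time, and the other 4 (36.4%) shared the upstream edge alone. Over the series the shares were 72.7% and 20.4%. In the SOCS genes the split followed width. Among these 11, all 7 SOCS regions of at most 1000 bp had identical edges, where 86.8% of such regions in the series did. The 4 over 1000 bp, the downstream ones of SOCS3, SOCS4, SOCS5 and SOCS6, shared the upstream edge alone, where 48.4% of such regions in the series did. Of the 10960 series regions with identical edges, 9034 were of at most 1000 bp, so wide regions with identical edges also occurred. The SOCS2 region, with 2 peaks in each list, and the last SOCS7 region, in 2 lists, are also over 1000 bp and are not among the 11.

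The downstream edge of these 4 regions moved over 192 bp in SOCS3, 221 bp in SOCS4, 103 bp in SOCS5 and 206 bp in SOCS6. MeRIP 1 gave the shortest peak in each of the 4 genes. MeRIP 2 and MeRIP 3 ended at the same base in SOCS5 and in SOCS6. The last SOCS7 region, listed in 2 repeats, also had a fixed upstream edge and a downstream edge that moved by 429 bp, with MeRIP 1 again the shorter. The peaks ended before the 3' end of the interval by 4.72 to 4.94 kb in SOCS4, 3.27 to 3.38 kb in SOCS5 and 3.36 to 3.57 kb in SOCS6. In SOCS3 the end came 8 to 200 bp before it. SOCS4, SOCS5 and SOCS6 thus left kilobases at their 3' end with no listed peak, while SOCS3 left almost none. The other genes with peaks also left kilobases: SOCS2 left 7.72 to 7.93 kb. SOCS7 left 5.24 kb in MeRIP 1, 4.81 kb in MeRIP 2 and 38.1 kb in MeRIP 3.

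**Figure D3:**
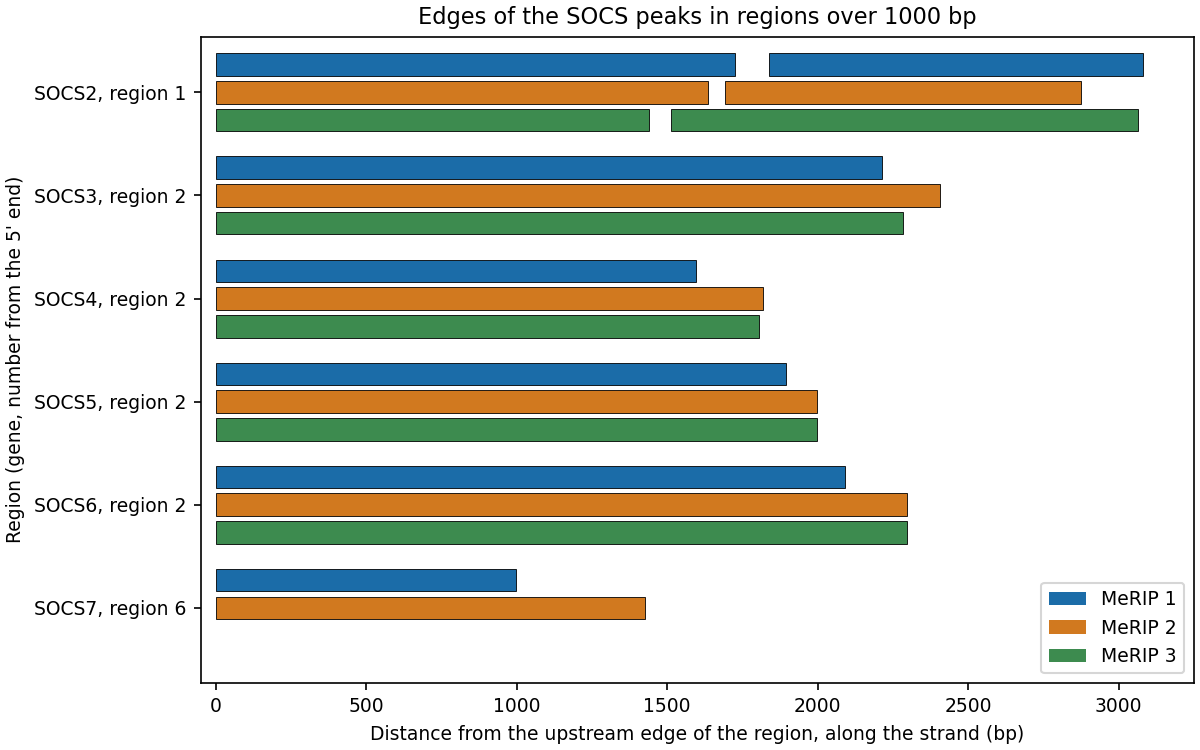
Peaks of the 6 SOCS regions over 1000 bp, as bars from the upstream edge of the region (x axis, bp along the strand), with MeRIP 1 in blue, MeRIP 2 in orange and MeRIP 3 in green. The upstream edges line up in every region, the downstream edges differ by 103 to 221 bp in SOCS3, SOCS4, SOCS5 and SOCS6, and the break inside SOCS2 moves between lists.

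Agreement of scores between lists varied from region to region. Of the 8 SOCS regions in all 3 lists that were below the ceiling in each, 4 (50%) had scores within 2-fold of one another, against 52.4% in the series, where the median ratio of highest to lowest score was 1.94. The downstream region of SOCS6, with a ratio of 1.30, lay at the 12.8th percentile of that ratio over the series, and the 5' region of SOCS5, with 1.47, at the 23.7th. The SOCS6 scores, 2186 to 2838, lay near the ceiling of 3100, which limits how large their ratio can be. Its low percentile is therefore not read as closer agreement than elsewhere. The regions of 105 and 169 bp in SOCS7 had ratios of 4.13 and 3.85, at the 88.8th and 86.7th percentiles. That of 131 bp in SOCS7 had 2.20, at the 59.3rd. The 5' region of SOCS4 was near the extreme, at the 98.3rd percentile. The downstream region of SOCS4 was at the ceiling in each list, so the 2 ends of this gene could not be compared for spread.

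**Figure D4:**
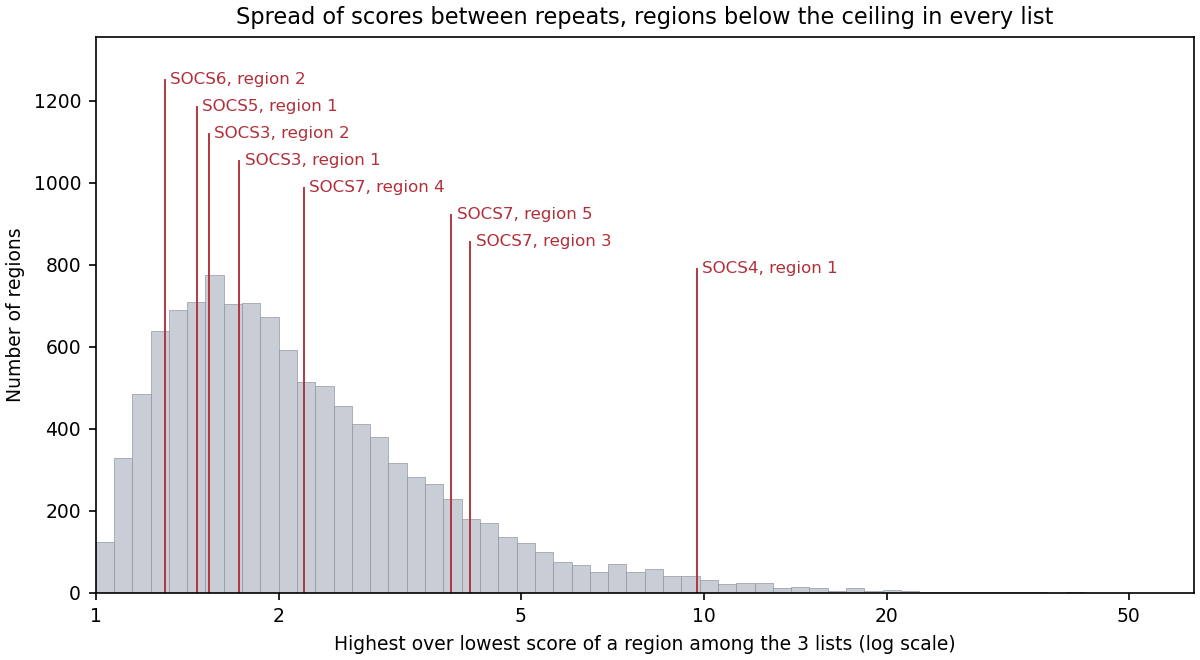
Ratio of the highest to the lowest score among the 3 lists (x axis, log scale) for the 11131 regions of the series below the ceiling in every list, as the number of regions per bin (y axis, grey bars). Red lines mark the 8 SOCS regions of this kind, from 1.30 for region 2 of SOCS6 to 9.75 for region 1 of SOCS4; their height carries no value.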

How the data were processed

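MeRIP-seq peaks of 3 repeats in HEK293T cells were used, 1 deposited list per repeat, which the labels tie to its IP and its input. The lists are named as m6A peaks of mRNA, so all comparisons with the series are with the peaks in these lists. Per the labels' protocols, ribosomal RNA was removed and 150 bp paired-end reads were sequenced. The submitters' processing notes name cutadapt 1.9.3, HISAT2 2.0.4 and build hg19. Peak names carry the word MACS, with no version or settings given in the sources used here. The score deposited by the authors runs from 50 to 3233, and scores above 3100, the most frequent value, were set to 3100. No library counts or depth come with the lists.

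SOCS peaks were found by their centre in the hg19 interval of each gene (SOCS7's is in round numbers), on its strand. Peaks of all lists sharing at least 1 bp on a strand were merged into regions. Positions count from 1. A percentile is the share of a list's peaks (or of regions) below the value. The 7 genes, tests and alternatives were chosen with earlier results of these data known, and all 7 genes and every region in at least 2 lists are named. No hypothesis test was run, since 1 condition was measured. Merging was tested on simulated data with at most 1 peak per list in a region, so chains such as the SOCS2 block were not tested. Transcript parts, JAK-STAT genes and peak sequences were not analysed here, because no hg19 annotation or genome was used. Python 3.11.15, NumPy 2.4.6 and Matplotlib 3.10.9 were used.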

Additional observations from a re-analysis of the deposited data

How the results depend on the processing

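No paired analysis was possible because a list combines the IP and input of 1 repeat and gives no value for either library. The counts and the median score of SOCS peaks did not change when any overlap with the interval was enough, when intervals were widened by 1 kb at each end or when strand was ignored. These settings could not add a peak. The nearest listed peak outside an interval lay 13.1 kb away, and the intervals held 0 peaks on the opposite strand. Removing the ceiling could not change the score either, since no SOCS peak scored above 3100. The 12 SOCS regions in all lists became 13 with 50% reciprocal overlap, which separates the 2 SOCS2 peaks, and 12 to 13 without 1 repeat, counting regions in both remaining lists. Without 1 repeat there were 14 to 15 SOCS peaks per list, a median log2 score of 9.10 to 9.16 (9.13 over 3 lists) and 7 to 9 regions with identical edges. Settings that use fewer peaks gave other values. When only peaks with at least the median score of a list were kept, 6 SOCS regions were in all 3 lists, with 7.67 peaks per list, a median log2 score of 11.48 and 1 region with identical edges. With peaks of at most 1000 bp, 7 SOCS regions were in all 3 lists, with 8.33 peaks per list and a median log2 score of 7.41; SOCS2 then had no peak. SOCS1 had 0 peaks in every setting run. No setting could have changed this, since the nearest listed peak on either strand lay over 72 kb away. Read depth is unknown, and the lists hold no score under 50, so weak regions such as the 5' ones of SOCS3 and SOCS6 can be lost from a list.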

Other observations

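Peak numbers in the names rose with position in 100% of neighbouring pairs on a chromosome in each list. A skipped number is thus read here as a peak that was numbered and not listed. Most numbers were skipped over the series. The highest number was 96698 in MeRIP 1, 74706 in MeRIP 2 and 75015 in MeRIP 3, while 21286, 19851 and 20010 peaks were listed. Skips near the SOCS genes are therefore not read as particular to these genes. In MeRIP 2, 1 number was skipped between the 5' peak of SOCS7 (29041) and the region of 105 bp (29043), the stretch in which MeRIP 1 and MeRIP 3 list the region of 65 bp. A further number was skipped between the region of 169 bp and the last region of SOCS7 in MeRIP 1 and in MeRIP 2. In MeRIP 3, where that last region is not listed, 3 numbers were skipped between the region of 169 bp and the next listed peak. In SOCS5, MeRIP 1 skipped 1 number between the 5' and the downstream region, and MeRIP 2 and MeRIP 3 skipped none. Around SOCS1, 6 numbers were skipped between the flanking listed peaks in each of the 3 lists, and around SOCS6 the skipped numbers were 75, 43 and 45 in MeRIP 1, 2 and 3. The strand, position and score of skipped peaks are not known from the lists.

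Inside SOCS4 no number was skipped between the 2 regions in any list, across the 15.5 kb that separate them. The same was true of the 566 bp between the SOCS3 regions in all 3 lists and of the 35.5 kb between the SOCS6 regions in MeRIP 1.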
